A study of Danio rerio with 10 samples.

Results

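Fatty acid oxidation and lipid use genes of zebrafish muscle were described here as 57 genes chosen by their names. The rule took the carnitine palmitoyltransferases, acyl-CoA dehydrogenases, hydroxyacyl-CoA dehydrogenases, enoyl-CoA hydratases and isomerases, thiolases, acyl-CoA oxidases, acyl-CoA synthetases, fatty acid binding proteins, the PPAR nuclear receptors, the pyruvate dehydrogenase kinases, lpl, cd36, the perilipins, pnpla2 and the uncoupling proteins out of 17373 zebrafish genes listed. Of the 57 genes, 31 were one-to-one orthologues of a human gene, and these were read in all 4 groups of fish. The other 26, mostly duplicated copies, were listed for torpor against control only. The rule uses names only, and no measured value enters it, but it was chosen with earlier results of these data known.

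The study asked whether a torpor-like state changes how muscle responds to low-dose radiation. RNA was sequenced from the dorsal muscle, mainly fast-twitch, of 10 adult AB zebrafish in 4 groups. Torpor+radiation fish (n = 3) were kept at 18.5 °C with 24 µM melatonin and received 32.64 cGy from a cesium-137 source. Torpor fish (n = 2) had the same cold and melatonin without irradiation. Radiation fish (n = 3) were kept at 28.5 °C and received 32.64 cGy, and control fish (n = 2) were kept at 28.5 °C without either. The experiment ran for 10 days. Before it, the water of the torpor and torpor+radiation fish was cooled gradually over several weeks. Cold and melatonin were always given together in these 4 groups, so their parts cannot be told apart. The sample titles carry letters that the labels do not explain. They were F for both control and all 3 radiation fish and M for both torpor fish. Of the torpor+radiation fish, 2 had M and 1 had F. What the letter stands for thus cannot be told apart from torpor in torpor over control. It is only partly separated from torpor in torpor+radiation over control and over radiation, where 1 torpor+radiation fish shares the letter F.

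The deposited tables held no value per fish. They gave each gene's mean normalised read count over the 10 fish, a log2 fold change over control and its standard error (SE) for each of the other 3 groups. For one-to-one genes these values fix the mean of each group, which is printed here with its model SE. The paper states a minimum sequencing depth, but the depth of each fish is not given. Genes with a mean of at least 10 normalised counts were tested with a Wald test, with Benjamini-Hochberg adjustment over 10441 genes for torpor against control and over 6499 one-to-one genes for every other comparison. A gene was called at an adjusted p of at most 0.1, or 0.4 for radiation against control, as the study set it.

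The tissue label was checked against marker genes. Fast-muscle genes were abundant, with means over all fish of 419048 normalised counts for ckmb, a muscle creatine kinase, and 256394 for mylz3, a fast myosin light chain. One sample protocol speaks of liver, but only 2 of 13 liver markers reached a mean of 10. Of 12 fast-muscle markers tested in torpor against control, 1 was called higher (8.33%) and 5 lower (41.7%). Of 7 slow-muscle markers 0 were called higher and 2 lower (28.6%). Over all 10441 genes 7% were called higher and 5.26% lower, so in both lists the share called lower was above that of all genes. The summed slow-muscle markers with 1 human orthologue reached 8407 in torpor+radiation, 9112 in torpor, 13264 in radiation and 15130 in control fish. The order of these sums rested on 1 gene, the slow myosin light chain myl10. Without it they were 2915 in torpor+radiation, 2984 in torpor, 2661 in radiation and 2692 in control fish. The other slow-muscle marker called lower in torpor is not one-to-one and so is not in the sums. In torpor over control 6 of the 7 slow-muscle markers tested lay below 0. Oocyte markers summed to 19.3 in torpor+radiation, 23.4 in torpor, 22.8 in radiation and 622 in control fish, so every comparison with control sets fish low in these markers against fish high in them. Torpor+radiation against radiation uses no control fish, but there the intestine marker cdh17 was called higher, with 84.7 normalised counts in torpor+radiation and 2.46 in radiation fish. Summed intestine markers were 114 in torpor+radiation, 157 in torpor, 22.5 in radiation and 340 in control fish. Without cdh17 they were 28.8, 30.4, 20.1 and 48.6 in the same order of groups. The part of these marker groups in the results below was not tested.

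Fatty acids are a main fuel of resting and enduring muscle. They enter the cell with the help of lipoprotein lipase and binding proteins, are coupled to coenzyme A, and cross into the mitochondrion on carnitine. There they are shortened in a repeating cycle of dehydrogenation, hydration, a further dehydrogenation and thiolysis. The pyruvate dehydrogenase kinases switch off pyruvate dehydrogenase and so favour fat over glucose, and the PPAR receptors are transcription factors that switch on many of these genes.

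In torpor, some genes of mitochondrial fatty acid entry and oxidation were called higher than in control fish. Of the 46 members tested against control, 6 were called higher and 0 lower. Over all 10441 genes 7% were called higher and 5.26% lower, or 12.3% in either direction. The share of members called in either direction was near this 12.3%, with all of their calls higher. The 6 were cpt1ab, acsl1b, acadm, hadhb, acaa1 and pdk2a, with fold changes between 1.92 and 2.57. Of these, acaa1 is peroxisomal and pdk2a is a pyruvate dehydrogenase kinase. At an unadjusted p under 0.05, 15 members differed, 13 higher and 2 lower, where the background was 21.8% of genes, 11.8% higher and 10% lower. The median log2 fold change was 0.30 over the 46 members and -0.01 over all genes tested, and 30 members lay above 0. With a t distribution of 6 degrees of freedom in place of the normal, which allows for the small number of fish, 0 members were called in this or any other comparison, and 7 had an unadjusted p under 0.05 here. That setting called 0 of all 10441 genes in torpor over control. The spread of the members by role is shown in the plot of torpor over control.

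**Figure D1:**
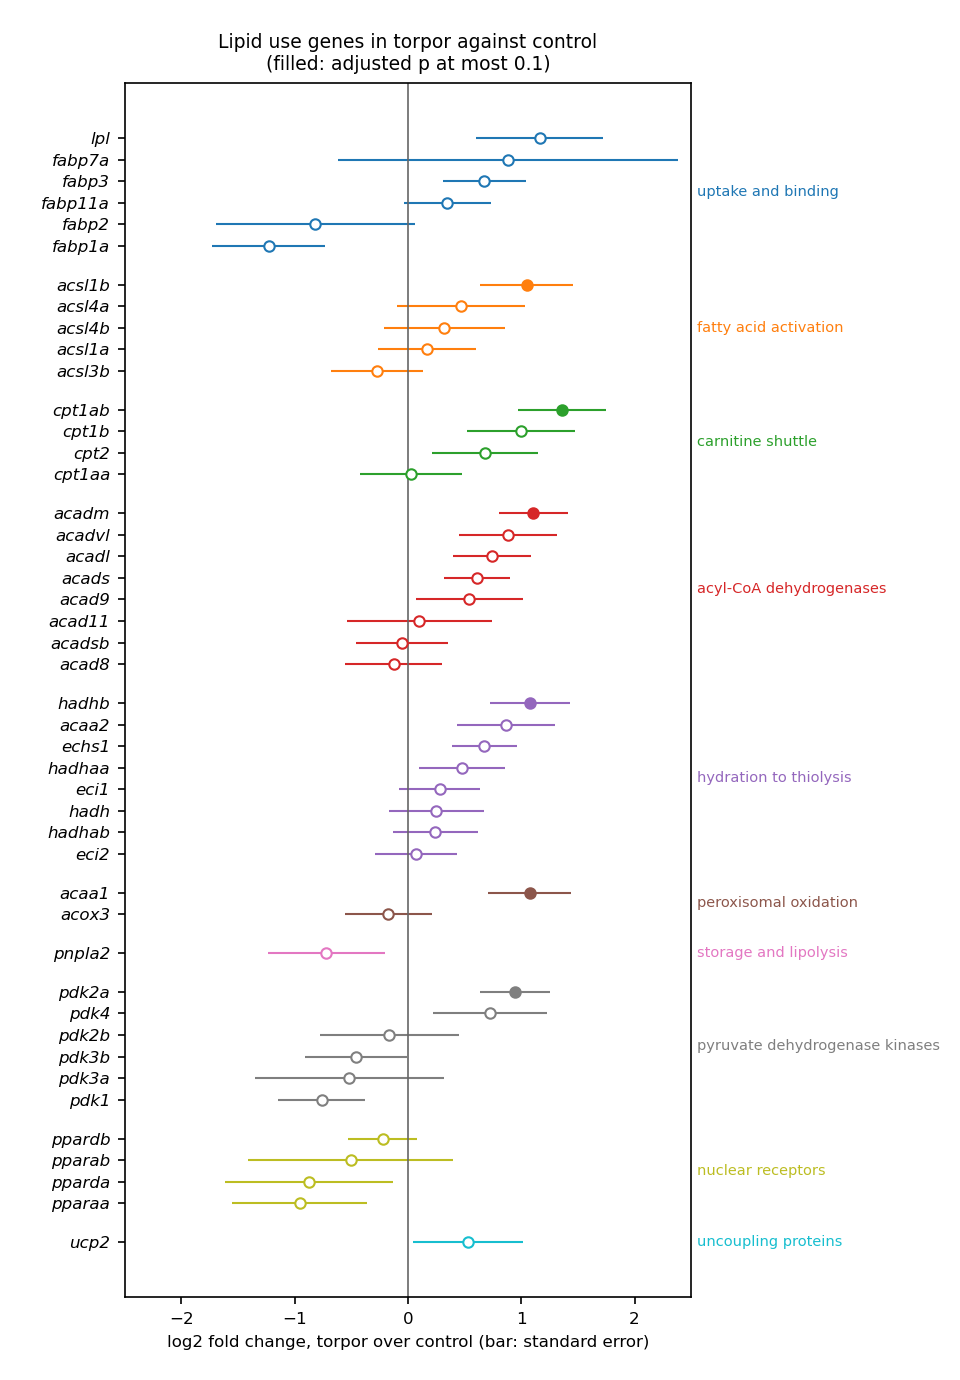
Log2 fold change of torpor over control for 45 of the 46 members tested, 1 point per gene with its standard error, grouped and coloured by role. Filled points mark the 6 genes with an adjusted p of at most 0.1, all above 0; the 4 PPAR receptors all lie below 0 with none called.

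The carnitine shuttle moves long-chain fatty acids into the mitochondrion, and all 4 of its members had values above 0 in torpor. For cpt1aa the value was close to 0 and became -0.03 when fold changes were centred on the median gene. cpt1ab (ENSDARG00000062054), a copy of the liver-type carnitine palmitoyltransferase 1 that commits fatty acids to oxidation, rose by 1.36 ± 0.39 on the log2 scale (SE, Wald adjusted p = 0.0115). Its duplicate cpt1aa had a value of 0.03 ± 0.45, with a 95% interval from -0.86 to 0.91 that overlapped that of cpt1ab from 0.60 to 2.12. The difference between these copies was not tested, and how reads that match both copies were counted is not known.

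cpt1b, the muscle-type enzyme, had group means of 1583 ± 303 normalised counts in torpor+radiation, 2254 ± 527 in torpor, 1530 ± 292 in radiation and 1129 ± 265 in control fish (model SE). Torpor fish stood highest. The torpor value over control was 0.997 ± 0.48 (Wald adjusted p = 0.19), while torpor+radiation over radiation was 0.05 ± 0.39. cpt2, the inner-membrane partner that releases the acyl group to coenzyme A, had 215 ± 39.7 in torpor+radiation and 197 ± 44.7 in torpor fish, against 132 ± 24.7 in radiation and 123 ± 28.3 in control fish. Both cold groups were above both warm groups, but no comparison passed the test, with 0.68 ± 0.47 in torpor over control and 0.70 ± 0.38 in torpor+radiation over radiation.

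The long-chain acyl-CoA synthetases couple fatty acids to coenzyme A before they are used. acsl1b (ENSDARG00000003854) rose by 1.05 ± 0.41 in torpor (Wald adjusted p = 0.0917), and its copy acsl1a had a value of 0.17 ± 0.43. The remaining 3 tested synthetases lay between -0.27 for acsl3b and 0.47 for acsl4a, with none called. The call for acsl1b was lost when fold changes were centred on the median gene.

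The acyl-CoA dehydrogenases carry out the opening step of each cycle and differ in the chain length they take. acadm (ENSDARG00000038900), which takes medium chains, had 8527 ± 1038 normalised counts in torpor+radiation, 11775 ± 1755 in torpor, 6547 ± 797 in radiation and 5465 ± 815 in control fish. It was highest in torpor fish and rose by 1.11 ± 0.30 over control (2.16-fold, Wald adjusted p = 0.0076). In torpor+radiation fish its value over control was 0.64 ± 0.28 (Wald adjusted p = 0.117) and over radiation 0.38 ± 0.25.

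acadvl, for very long chains, had 10363 ± 1802 in torpor+radiation, 15138 ± 3224 in torpor, 10136 ± 1763 in radiation and 8215 ± 1750 in control fish. The torpor value over control was 0.88 ± 0.43 (Wald adjusted p = 0.209) and that of torpor+radiation over radiation 0.03 ± 0.35, so that torpor fish stood apart from the other 3 groups by their mean without a call. acadl, for long chains, had 1307 ± 180 in torpor+radiation, 1403 ± 237 in torpor, 1002 ± 138 in radiation and 839 ± 142 in control fish, with 0.74 ± 0.34 in torpor over control (Wald adjusted p = 0.172).

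acads (ENSDARG00000030781), for short chains, had 1125 ± 132 in torpor+radiation and 1160 ± 167 in torpor fish, against 749 ± 88.4 in radiation and 761 ± 110 in control fish. Each cold group thus stood about equally far above its warm counterpart. The difference passed the test in torpor+radiation over radiation, at 0.59 ± 0.24 (Wald adjusted p = 0.093), and not in torpor over control, at 0.61 ± 0.29 (Wald adjusted p = 0.195). Of the other dehydrogenases, acad9, which also helps to assemble respiratory complex I, had 0.54 ± 0.47 in torpor over control. acad8 and acadsb, which serve the breakdown of branched-chain amino acids, had values of -0.13 ± 0.43 and -0.06 ± 0.40, and acad11 had 0.10 ± 0.64.

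The remaining steps of the mitochondrial cycle gave values above 0 in torpor for all 8 members tested, with 1 called. hadhb (ENSDARG00000102055) encodes the thiolase subunit of the mitochondrial trifunctional protein. It had 8850 ± 1247 normalised counts in torpor+radiation and 8428 ± 1455 in torpor fish, against 4822 ± 680 in radiation and 3994 ± 690 in control fish. Both cold groups had higher means than both warm groups. hadhb was called in each of the 3 cold against warm comparisons made, some of which share fish. Torpor was not compared with radiation. The values were 1.08 ± 0.35 in torpor over control (Wald adjusted p = 0.034) and 1.15 ± 0.32 in torpor+radiation over control (Wald adjusted p = 0.00819). In torpor+radiation over radiation the value was 0.88 ± 0.29 (Wald adjusted p = 0.0261).

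The partner subunit of hadhb, which holds the hydratase and dehydrogenase activities, has 2 copies in the zebrafish. hadhaa had a value of 0.47 ± 0.38 in torpor over control and hadhab 0.24 ± 0.38, neither called. echs1 (ENSDARG00000001578), the short-chain enoyl-CoA hydratase of the matrix, had 1575 ± 178 in torpor+radiation and 1489 ± 207 in torpor fish, against 1028 ± 117 in radiation and 933 ± 130 in control fish. It rose by 0.76 ± 0.26 in torpor+radiation over control (Wald adjusted p = 0.0381) and by 0.62 ± 0.23 over radiation (Wald adjusted p = 0.0619). In torpor over control the value of 0.68 ± 0.28 did not pass the test over all genes (Wald adjusted p = 0.123).

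acaa2, a mitochondrial thiolase outside the trifunctional protein, had 0.87 ± 0.43 in torpor over control (Wald adjusted p = 0.216). The short-chain dehydrogenase hadh had 0.25 ± 0.42, and the isomerases eci1 and eci2, which deal with double bonds of unsaturated fatty acids, had 0.28 ± 0.35 and 0.07 ± 0.36. These 3 genes had values of -0.04 ± 0.34, -0.12 ± 0.29 and -0.40 ± 0.29 in torpor+radiation over radiation, in the order hadh, eci1 and eci2.

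Peroxisomes shorten very long and branched fatty acids, with hydrogen peroxide as a by-product. Their thiolase acaa1 (ENSDARG00000004687) had 251 ± 36.6 normalised counts in torpor+radiation and 244 ± 43.4 in torpor fish, against 148 ± 22.0 in radiation and 116 ± 21.4 in control fish. It rose in torpor by 1.07 ± 0.37 over control (Wald adjusted p = 0.0466), in torpor+radiation by 1.12 ± 0.34 over control (Wald adjusted p = 0.0159) and by 0.76 ± 0.30 over radiation (Wald adjusted p = 0.077). The oxidase acox3, which acts at the start of the peroxisomal cycle, had -0.17 ± 0.39 in torpor over control and was not called, with a 95% interval from -0.93 to 0.58.

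**Figure D2:**
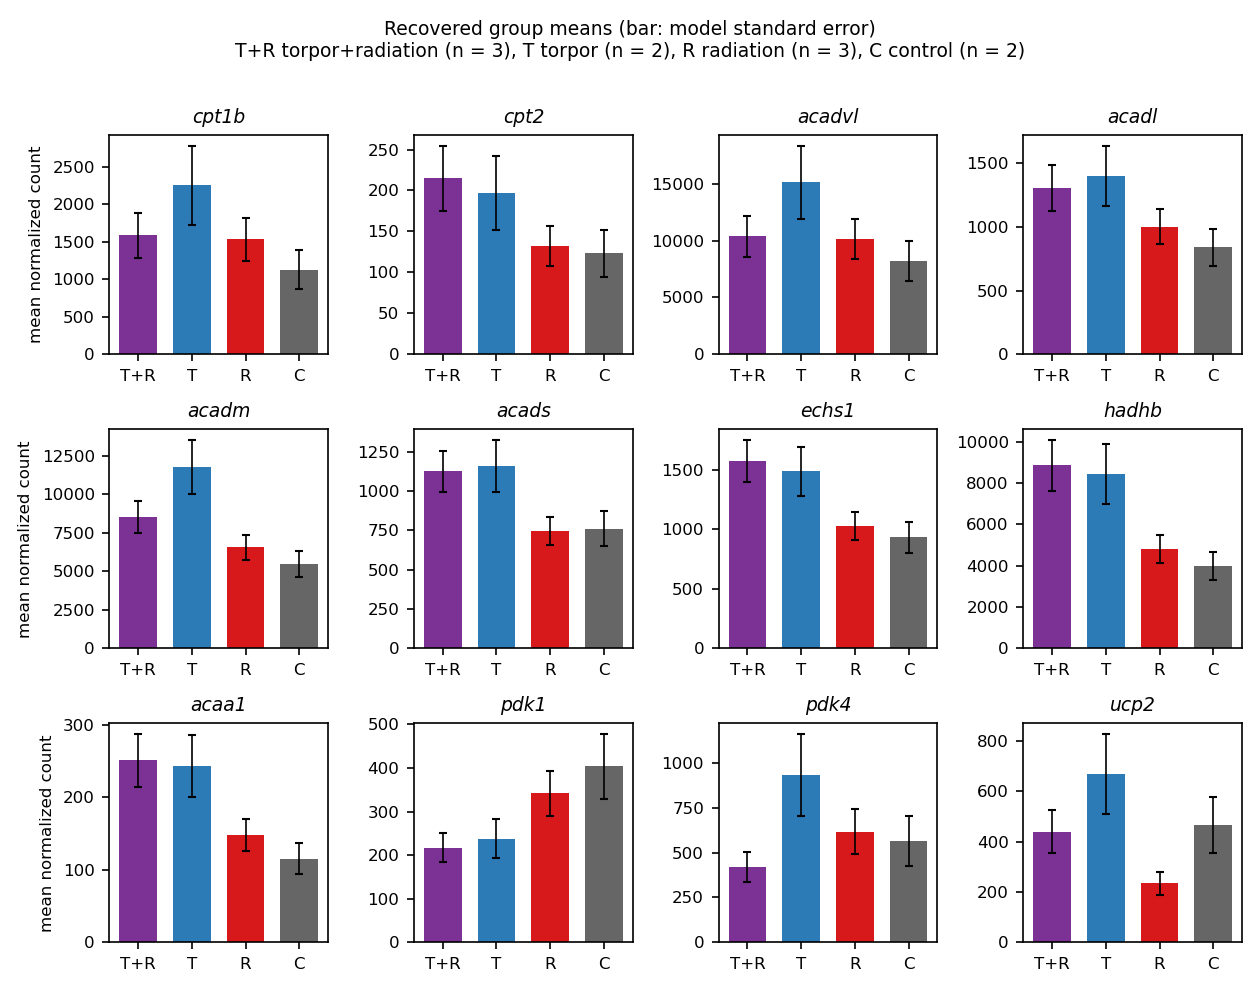
Mean normalised count in torpor+radiation (T+R), torpor (T), radiation (R) and control (C) fish for 12 one-to-one members. Bars start at 0 and error bars are model standard errors. hadhb, acaa1, echs1 and acads have similar means in both cold groups, above both warm groups. acadm, acadvl and cpt1b also have both cold means above both warm means, with the highest in torpor fish. For acadvl and cpt1b the torpor+radiation mean is close to that of radiation fish. pdk4 is highest in torpor and lowest in torpor+radiation fish.

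Members for uptake, binding and storage gave no call in torpor. For storage and lipolysis only the lipase pnpla2 was tested, and storage genes outside the name rule are given below. lpl, the lipoprotein lipase that frees fatty acids from circulating fat, had 1.16 ± 0.56 in torpor over control (Wald adjusted p = 0.194). fabp3, the heart- and muscle-type binding protein, had 3032 ± 445 normalised counts in torpor+radiation, 3228 ± 581 in torpor, 3099 ± 455 in radiation and 2024 ± 365 in control fish. All 3 treated groups lay above control, at 0.58 ± 0.34, 0.67 ± 0.37 and 0.61 ± 0.34 in torpor+radiation, torpor and radiation fish. The smallest Wald adjusted p of these was 0.269. The values in torpor over control were 0.88 ± 1.5 for fabp7a, the brain-type binding protein, and -0.82 ± 0.88 for fabp2, the intestinal one, with means over all fish of 11.7 and 10.7 normalised counts.

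fabp11a, a binding protein expressed in zebrafish fat tissue, had 0.35 ± 0.38. Fat cell markers were present in these samples, with means over all fish of 173 normalised counts for adipoqa and 299 for adipoqb, the adiponectins, whose torpor values over control were -0.73 ± 0.46 and -0.02 ± 0.46. Of the 9 fat cell markers tested, 1 was called higher (cidec) and 1 lower (gpd1b), where 7% and 5.26% of all genes were. As cidec reached the minimum mean of 10 only through torpor fish, its call is no support for more fat cells. The summed level of the fat cell markers with 1 human orthologue was 560 in torpor+radiation, 597 in torpor, 466 in radiation and 485 in control fish. Without agpat2, the most abundant of these, the sums were 202 in torpor+radiation, 177 in torpor, 96.7 in radiation and 162 in control fish. The part of fat cells in the lipid results was not tested, and in these whole-tissue samples fewer cells of a type and less RNA per cell cannot be told apart. fabp1a, which belongs to the liver-type binding proteins, had the lowest value of the 46 members tested, at -1.23 ± 0.50 (Wald adjusted p = 0.107), and it passed the threshold when fold changes were centred on the median gene.

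pnpla2, the lipase that starts the breakdown of stored triglyceride, had 76.9 ± 15.9 in torpor+radiation and 69.0 ± 17.6 in torpor fish, against 116 ± 23.7 in radiation and 114 ± 28.3 in control fish. The torpor value over control was -0.72 ± 0.51 and that of torpor+radiation over radiation -0.60 ± 0.42, neither called. In total 10 members stayed under a mean of 10 normalised counts and were not tested. Among these were cd36, a fatty acid translocase, at 1.48, plin2, a lipid droplet coat protein, at 3.29, and plin1 at 0.11. The others were acoxl, acsl5, fabp6, fabp1b.2 and fabp7b, together with fabp11b and fabp1b.1, which were at 0 in all fish.

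The pyruvate dehydrogenase kinases did not move as a group. pdk2a (ENSDARG00000020876) rose by 0.94 ± 0.31 in torpor over control (Wald adjusted p = 0.0356). Its copy pdk2b had -0.17 ± 0.61, and pdk3a and pdk3b had -0.52 ± 0.84 and -0.46 ± 0.45.

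pdk1 (ENSDARG00000013128) had 217 ± 33.4 normalised counts in torpor+radiation and 238 ± 44.7 in torpor fish, against 342 ± 52.0 in radiation and 404 ± 74.9 in control fish. It was lowest in the cold groups and fell by 0.89 ± 0.35 in torpor+radiation over control (Wald adjusted p = 0.0743). Its values of -0.76 ± 0.38 in torpor over control and -0.66 ± 0.31 in torpor+radiation over radiation did not pass the adjusted test, with unadjusted Wald p-values of 0.0448 and 0.0353.

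pdk4, the kinase known for its rise in fasting muscle of mammals, had 420 ± 85.0 in torpor+radiation, 931 ± 230 in torpor, 617 ± 124 in radiation and 564 ± 140 in control fish. Torpor fish were highest and torpor+radiation fish lowest. Torpor+radiation over torpor gave the largest radiation contrast of any member tested within the cold, at -1.15 ± 0.46 (0.451-fold), with an unadjusted Wald p of 0.0125 and an adjusted p of 0.867.

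The 4 PPAR receptors with enough reads lay below 0 in torpor, with none called. The values were -0.96 ± 0.59 for pparaa, -0.87 ± 0.74 for pparda, -0.51 ± 0.90 for pparab and -0.22 ± 0.30 for ppardb. Each 95% interval held 0, and the smallest Wald adjusted p was 0.348. These copies were listed for torpor against control only.

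ucp2, a mitochondrial carrier of the uncoupling protein family, had 439 ± 85.5 in torpor+radiation, 670 ± 159 in torpor, 235 ± 46.1 in radiation and 465 ± 111 in control fish. Radiation fish were lowest. The value of torpor+radiation over radiation was 0.90 ± 0.40 (Wald adjusted p = 0.127), and that of radiation over control was -0.99 ± 0.45. ucp1, the uncoupling protein of mammalian brown fat, was left untested because its deposited p-value was missing in every comparison with control. Its means were 49.1 ± 38.5 in torpor+radiation, 6.87 ± 6.82 in torpor, 12.4 ± 9.88 in radiation and 40.9 ± 39.3 in control fish, with errors close to the means.

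In torpor+radiation over control, 3 of 24 one-to-one members were called higher (hadhb, acaa1 and echs1) and 1 lower (pdk1). Over all 6499 genes 9.74% were called higher and 6.65% lower, or 16.4% in either direction, which was near the share of members called. At an unadjusted p under 0.05, 7 members differed, against 24.5% of genes. The median gene with at least 50 normalised counts itself stood at 0.15 in this comparison and at 0.11 in radiation over control. Relative to that shift, hadhb stood at 0.99, acaa1 at 0.96, echs1 at 0.60 and pdk1 at -1.05, and echs1 was no longer called. The median of the members was 0.14 against 0.09 over all genes tested.

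The torpor response was estimated again without control fish by setting torpor+radiation against radiation. Here 4 of 24 members were called higher, namely hadhb, echs1, acaa1 and acads, and 0 lower by the Wald test. The background was 9.11% higher and 7% lower, or 16.1% in either direction, which was near the share of members called. At an unadjusted p under 0.05, 6 members differed, with pdk1 the only one lower, against 25.1% of genes. The median of the members was 0.03, close to the 0.06 over all genes tested. The middle of the group thus did not stand above other genes here. For the same 24 members the median in torpor over control was 0.53. Centring on the median gene left hadhb and echs1 called. Oocyte markers were low in both of these groups, whereas intestine markers summed to 114 in torpor+radiation and 22.5 in radiation fish. Fat cell markers without agpat2 summed to 202 in torpor+radiation and 96.7 in radiation fish. The unexplained title letter was F for all radiation fish and M for 2 of the 3 torpor+radiation fish. The part of these differences was not tested.

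Torpor over control and torpor+radiation over radiation share no fish. Of the 24 members, 10 were above 0 in both and 4 below 0 in both, so 58.3% had the same sign, where 73.6% of all 6499 genes did. Pearson's r across the 24 genes was 0.66, and 0.57 across all genes tested. Genes are not independent replicates, and all values come from the same 10 fish and the same normalisation. hadhb, acaa1, echs1, acads and cpt2 lay at similar heights on both axes, while acadvl, cpt1b, acadm and pdk4 lay lower in torpor+radiation over radiation.

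**Figure D3:**
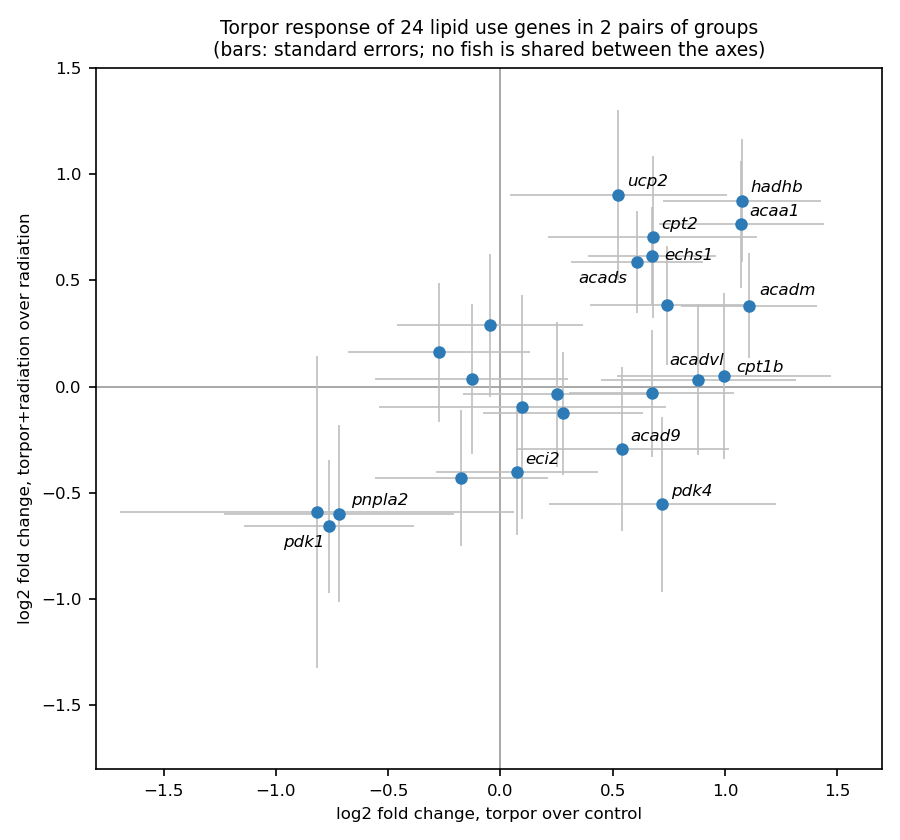
Log2 fold change of torpor over control (horizontal axis) and of torpor+radiation over radiation (vertical axis) for the 24 one-to-one members tested, with standard errors. hadhb, acaa1, echs1 and acads lie in the upper right, pdk1 and pnpla2 in the lower left, and pdk4 is at 0.72 on the horizontal and -0.55 on the vertical axis.

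Radiation alone called 0 of 24 members by the Wald test at an adjusted p of at most 0.4, where 0.923% of genes were called. At an unadjusted p under 0.05 there was 1 member, against 4.52% of genes. This was ucp2, with an unadjusted Wald p of 0.027 (adjusted p = 0.972) and 235 ± 46.1 normalised counts in radiation fish and 465 ± 111 in control fish. The values of the other 23 members lay between -0.31 for fabp2 and 0.62 for acad9. For hadhb the value was 0.27, with a 95% interval from -0.36 to 0.90, and for acadm 0.26, with an interval from -0.28 to 0.81. Changes of these sizes were not detectable with this number of fish.

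Radiation within the cold, torpor+radiation over torpor, likewise called 0 of 24 members by the Wald test, where 0.215% of genes were called, and pdk4 was the only member with an unadjusted p under 0.05, against 4.2% of genes. The median of the members was -0.11 against 0.01 over all genes, and 16 of 24 lay below 0. Among the long- and medium-chain entry steps, values were -0.55 ± 0.40 for acadvl, -0.51 ± 0.44 for cpt1b and -0.47 ± 0.28 for acadm. Their unadjusted Wald p-values were 0.168, 0.242 and 0.0935. acadl and cpt2, of the same steps, had -0.10 ± 0.31 and 0.13 ± 0.42. hadhb, acaa1 and echs1 had values between 0.05 and 0.08 here, with standard errors of 0.26 to 0.33.

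**Figure D4:**
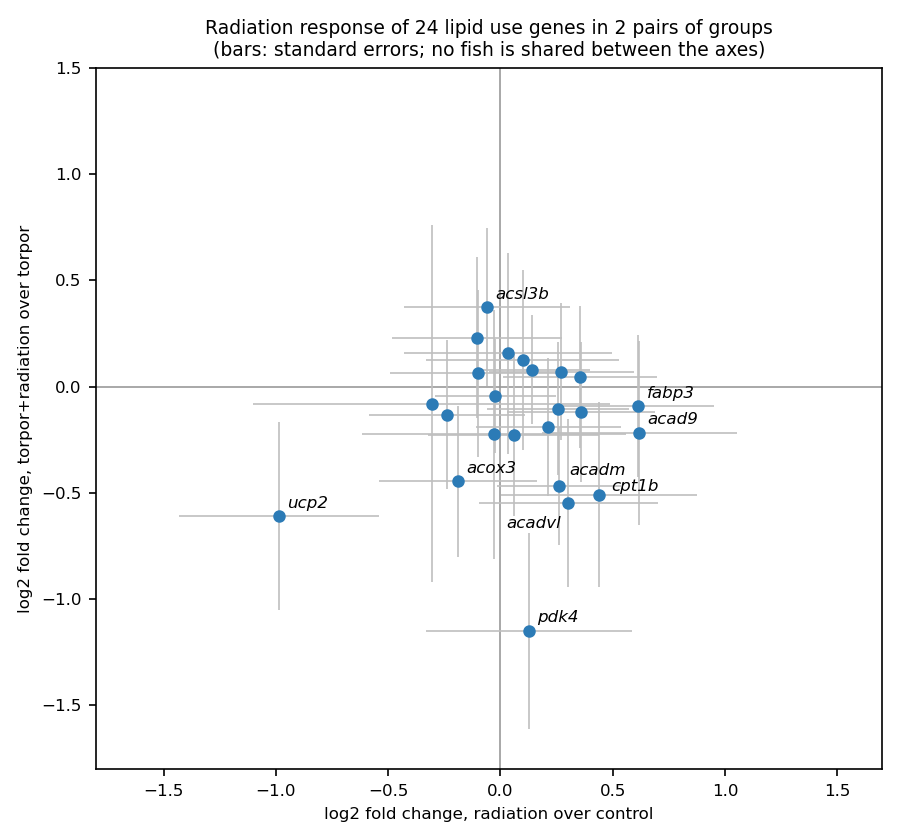
Log2 fold change of radiation over control (horizontal axis) and of torpor+radiation over torpor (vertical axis) for the 24 one-to-one members tested, with standard errors. Most members lie within 1 standard error of 0 on the horizontal axis, ucp2 lies at -0.99 there and pdk4 at -1.15 on the vertical axis.

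Whether radiation acted differently in torpor was tested as an interaction, the radiation difference in the cold less that in the warm. By the Wald test 0 of 24 members were called, where 0.462% of genes were called. At an unadjusted p under 0.05 there was 1 member, against 4.88% of genes. This was pdk4, at -1.28 ± 0.65 with an unadjusted Wald p of 0.0498 and an adjusted p of 0.999. The values were -0.95 ± 0.62 for cpt1b, -0.85 ± 0.56 for acadvl and -0.73 ± 0.39 for acadm, with 95% intervals that held 0. acadl and cpt2 had -0.36 ± 0.44 and 0.03 ± 0.60, likewise with intervals that held 0. A different response of these genes to radiation in torpor was therefore not shown. For hadhb the interaction was -0.20 ± 0.45 and for acaa1 -0.31 ± 0.48. The radiation contrasts in warm and cold fish had the same sign for 11 of 24 members, or 45.8%, against 49.7% of all genes.

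Across the 25 one-to-one members with at least 10 normalised counts, the highest mean stood in torpor+radiation fish for 7 genes, in torpor for 11, in radiation for 3 and in control for 4. The lowest stood in torpor+radiation fish for 6 genes, in torpor for 4, in radiation for 3 and in control for 12. These ranks were not counted over all genes, so the counts have no background to be read against. On the log2 scale the median gene with at least 50 normalised counts itself stood above control. It was at 0.06 in torpor, 0.15 in torpor+radiation and 0.11 in radiation fish. The untested ucp1 is among the 25 genes.

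Other genes of lipid use outside the name rule were read from a list of 82, of which 73 were found and 66 tested in torpor. Of these, 5 were called higher and 2 lower in torpor over control, or 7.58% and 3.03% of those tested, against 7% and 5.26% of all genes. The sublist of lipolysis and storage had the highest median of the sublists, 1.14, with all 12 genes tested above 0 and 3 calls. This sublist mixes genes of triglyceride synthesis and lipid droplets with lipases, and none of the 3 calls was a lipase. The median therefore does not speak for lipolysis alone. The lipase pnpla2, at -0.72 ± 0.51, is not part of the sublist. Genes above 0 were 12 of 16 for other oxidation genes, 4 of 8 for transport and carnitine and 3 of 5 for ketone use. They were 6 of 8 around pyruvate dehydrogenase, 2 of 3 for fat synthesis and 7 of 14 for regulators. For torpor+radiation fish only the one-to-one genes of the lipolysis and storage sublist were tested. This leaves out dgat1b, lipea and lipeb among others, so these medians cover fewer genes than the 1.14. In torpor+radiation over control the sublist had 6 of 8 above 0, a median of 0.53 and 1 call (all genes: 9.74% higher). In torpor+radiation over radiation it had 5 of 8 above 0, a median of 0.36 and 1 call (all genes: 9.11% higher). The calls in torpor over control were dgat1b, the last enzyme of triglyceride synthesis, at 1.76 ± 0.34 (Wald adjusted p = 2.81e-05), gpam, which adds the opening acyl group to glycerol phosphate, at 1.79 ± 0.42 (Wald adjusted p = 0.00103), and cidec, a lipid droplet protein, at 3.66 ± 1.30 (Wald adjusted p = 0.0551). With 6.26 normalised counts in torpor+radiation, 35.9 in torpor, 1.77 in radiation and 2.85 in control fish, cidec reached the minimum mean of 10 only through torpor fish, so its call is no support for the sublist. This sublist shares cidec, lipea and lipeb with the fat cell markers.

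gpam had 944 normalised counts in torpor+radiation, 1513 in torpor, 537 in radiation and 438 in control fish, highest in torpor. Its relative gpat4, an acyltransferase of the same step, rose by 0.79 ± 0.30 in torpor+radiation over radiation (Wald adjusted p = 0.0625). The peroxisomal enoyl-CoA reductase pecr had 201 in torpor+radiation and 208 in torpor fish, against 86.2 in radiation and 79.6 in control fish. pecr was called in each of the 3 cold against warm comparisons made. Its values were 1.38 ± 0.40 in torpor over control, 1.34 ± 0.37 in torpor+radiation over control and 1.22 ± 0.33 in torpor+radiation over radiation.

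The electron transfer flavoprotein system takes electrons from the acyl-CoA dehydrogenases to the respiratory chain. Its dehydrogenase etfdh had 2337 in torpor+radiation and 2188 in torpor fish, against 1422 in radiation and 1191 in control fish, and rose by 0.97 ± 0.34 in torpor+radiation over control (Wald adjusted p = 0.0466). Its subunit etfa had 1.13 ± 0.46 in torpor over control (Wald adjusted p = 0.107). decr1, which reduces unsaturated intermediates, rose by 0.83 ± 0.30 in torpor+radiation over control (Wald adjusted p = 0.0575). tfam, a mitochondrial transcription factor, rose by 0.83 ± 0.29 in torpor over control (Wald adjusted p = 0.0521), and ncor1, a corepressor of nuclear receptors, fell by 1.06 ± 0.39 (Wald adjusted p = 0.0713).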

How the data were processed

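Reads were trimmed by the authors with cutadapt, aligned to GRCz11 with STAR and assigned to genes with HTSeq, and a single DESeq2 model covered every group; versions are not given in the sources used here. The authors deposited 3 tables with the mean count normalised by size factors (a signal per gene), the log2 fold change over control with its SE, a statistic, p-value and adjusted p-value, joined to human orthologues. The deposited tests were neither printed nor compared; a missing deposited p-value marked a gene as untested. The log2 fold changes and SEs, which are the authors' estimates, were used because the tables hold no counts. Each group mean was solved from a gene's overall mean, its 3 fold changes and the number of fish per group, and the variances from the 3 SEs under a negative binomial model, averaging the dispersion and flooring means at 0.5. The ratio of SEs, 0.913 over 389 genes with a mean of at least 1000, matched the group sizes, and recalculated SEs had a median of 0.996 to 1.01 times the deposited SEs. Contrasts were tested with a normal Wald test and Benjamini-Hochberg adjustment, in Python 3.11.15 with NumPy 2.4.6, pandas 2.3.3 and SciPy 1.17.1, after a check on simulated data. p-values measure only the spread between these 10 samples. Every member could be named; 1 tested member is counted but not reported here; related genes were named if called in any of 6 contrasts or among the 3 most abundant, markers if among the most abundant of their list; etfa and the marker sums are given for context. Members and lists were chosen with earlier results of these data known. Alternatives were a t distribution, other filters, centring, other thresholds and adjustment over one-to-one genes.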

Additional observations from a re-analysis of the deposited data

How the results depend on the processing

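With a t distribution of 6 degrees of freedom in place of the normal, the Wald statistics called 0 members in each of torpor against control, torpor+radiation against control and torpor+radiation against radiation, where 7, 4 and 3 members had an unadjusted p under 0.05. Related lipid genes also gave 0 calls in these 3 comparisons, with 9, 11 and 7 at an unadjusted p under 0.05. Adjustment over one-to-one genes only left 3 members for torpor against control, since fewer members were tested. In torpor+radiation against radiation, 2 members were called with no filter on the mean, 2 after centring on the median gene (acaa1 and acads were lost) and 1 at an adjusted p of 0.05. For related genes in torpor against control, 3 were called at that threshold. Centring turned the median of the members to -0.012 in torpor+radiation against control and to -0.0195 in torpor+radiation against radiation. No member changed direction in a comparison in which it was called. A mean of at least 50 brought echs1 past the threshold in torpor against control and acadm in torpor+radiation against control. No paired analysis was possible because the tables hold no value per fish, and for the same reason no fish could be left out in turn. The depth of each fish is not given beyond a stated minimum, and 2 or 3 fish per group limit every comparison.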

Other observations

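Of the 49 genes of the wider lipid list tested in torpor+radiation fish, 5 were called higher and 6 lower over control, or 10.2% and 12.2%, against 9.74% and 6.65% of all genes. Over radiation fish 3 were called higher and 4 lower, or 6.12% and 8.16%, against 9.11% and 7% of all genes. Those called higher are described above, together with pdp1 below. mlycd, the decarboxylase that removes the malonyl-CoA brake on carnitine entry, had 22.0 normalised counts in torpor+radiation, 52.7 in torpor, 81.0 in radiation and 90.6 in control fish. It fell by 2.04 ± 0.61 in torpor+radiation over control (Wald adjusted p = 0.0137) and by 1.88 ± 0.55 over radiation (Wald adjusted p = 0.00971), while torpor over control was -0.78 ± 0.65. klf15, a transcription factor of fasting metabolism, had 122 in torpor+radiation, 199 in torpor, 286 in radiation and 276 in control fish, and fell by 1.23 ± 0.29 in torpor+radiation over radiation (Wald adjusted p = 8.56e-04). The carnitine synthesis genes tmlhe and bbox1 had values of -1.12 ± 0.51 and -1.24 ± 0.48 in that comparison, of which bbox1 was called. Over control they had -1.49 ± 0.56 and -0.71 ± 0.54, of which tmlhe was called. The fatty acid transporter slc27a6 fell by 1.90 ± 0.73 in torpor+radiation over control (Wald adjusted p = 0.0692) and had -0.75 ± 0.69 over radiation. None of these 5 genes was called in torpor+radiation over torpor or in the interaction. At an unadjusted Wald p under 0.05, mlycd, klf15, tmlhe and slc27a6 were lower in torpor+radiation over torpor. They were among 5 such genes of the 49, all lower, against 4.2% of all genes. These genes were picked for calls that use the same torpor+radiation fish.

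Around pyruvate dehydrogenase, the gate between glucose and fat, 2 genes were called. pdhx, which binds a subunit into the complex, had 490 normalised counts in torpor+radiation and 478 in torpor fish, against 1155 in radiation and 964 in control fish. It fell by 1.01 ± 0.37 in torpor over control (Wald adjusted p = 0.0714) and by 1.24 ± 0.31 in torpor+radiation over radiation (Wald adjusted p = 0.00147). pdp1, the phosphatase that reverses the kinases, had 862 in torpor+radiation and 1056 in torpor fish, against 342 in radiation and 585 in control fish, and rose by 1.33 ± 0.37 in torpor+radiation over radiation (Wald adjusted p = 0.00525). It was not called in torpor over control, at 0.85 ± 0.45, or in torpor+radiation over control, at 0.56 ± 0.41. pdhb, a catalytic subunit of the complex, had 0.23 ± 0.32 in torpor over control.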
